A study of Mus musculus with 36 samples.

Results

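The genes described here are 10 genes of the hepatic lipid droplet and of the release of fatty acids from it, followed in mouse liver over 24 h after lipopolysaccharide (LPS), a bacterial cell-wall component that sets off systemic inflammation. They are Plin2, Plin4 and Plin5, Cidec and Cideb, Pnpla2, Lipe and Mgll, and G0s2 and Hilpda. The genes were selected on the deposited signal of these same samples, the scaled reads per base over all 8 groups, so their levels and differences are given as a description, without p-values. All 10 were found among the 34829 genes of the table and were read in all 8 groups. All 10 also passed the filter on low values, a mean signal of at least 5 over the 36 samples, which left 8702 genes. Cidec and Plin4 passed it through their levels at 12 and 24 h, so that a difference from 0 h was built into their passing.

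The mice were of the inbred strain C57BL6/J and were kept at an ambient temperature of 22 °C or 30 °C. Livers were sampled at 0, 4, 12 or 24 h after injection of LPS, with 4, 4, 5 and 5 samples at 22 °C and 5, 4, 4 and 5 at 30 °C. The strain is the same in all 8 groups, and the labels name no mutation, other agent or age, nor a group without LPS at 4, 12 or 24 h. A change since 0 h can therefore not be told apart from the time of day, the handling or the feeding of the animals. No label ties the samples to different animals, and the spread between them may be technical in part.

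Liver cells store triglyceride in droplets bounded by a phospholipid layer and a coat of proteins. The perilipins Plin2, Plin4 and Plin5 sit on that coat and limit the access of lipases, and Plin5 also ties droplets to mitochondria. Cidec and Cideb belong to the CIDE family: Cidec merges small droplets into large ones, and Cideb, the family member typical of hepatocytes, acts in droplet fusion and in the lipidation of very low density lipoprotein. Pnpla2 (adipose triglyceride lipase) removes the first fatty acid from triglyceride, Lipe (hormone-sensitive lipase) hydrolyses diglyceride and cholesteryl ester, and Mgll hydrolyses monoglyceride. G0s2 and Hilpda are small proteins that bind Pnpla2 and inhibit it. Many of these genes are known targets of the nuclear receptor PPARa, which senses fatty acids, and Hilpda and Plin2 are also known targets of the hypoxia-inducible factors.

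The promoters of 4 of the genes are shown as examples of genes that had higher levels together at 24 h and are known targets of those factors. Cidec, Plin4 and Pnpla2 were also higher at 24 h, and their promoters are not shown. Each line gives, 5′ to 3′ on the strand of the gene, the 250 bases before a RefSeq start site in the mouse build GRCm38.p6. Capitals mark matches on either strand to AGGTCA, the half-site of a PPAR response element, and to ACGTG and GCGTG, the cores of a hypoxia response element. The windows lie at chr6:29272376-29272625 on the plus strand (Hilpda, the second of its RefSeq start sites), and on the minus strand at chr4:86670060-86670309 (Plin2), chr17:56117549-56117798 (Plin5, the first of its start sites) and chr1:193273189-193273438 (G0s2).
Hilpda: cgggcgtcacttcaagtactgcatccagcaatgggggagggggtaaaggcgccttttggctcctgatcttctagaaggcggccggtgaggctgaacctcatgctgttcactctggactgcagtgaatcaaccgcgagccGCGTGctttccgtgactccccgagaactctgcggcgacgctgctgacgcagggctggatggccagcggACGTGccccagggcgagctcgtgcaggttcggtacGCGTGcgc
Plin2: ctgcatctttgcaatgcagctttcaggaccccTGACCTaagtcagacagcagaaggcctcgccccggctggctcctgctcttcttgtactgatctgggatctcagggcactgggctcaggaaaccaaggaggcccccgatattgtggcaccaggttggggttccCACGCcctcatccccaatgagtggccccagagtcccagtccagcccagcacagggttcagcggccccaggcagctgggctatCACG
Plin5: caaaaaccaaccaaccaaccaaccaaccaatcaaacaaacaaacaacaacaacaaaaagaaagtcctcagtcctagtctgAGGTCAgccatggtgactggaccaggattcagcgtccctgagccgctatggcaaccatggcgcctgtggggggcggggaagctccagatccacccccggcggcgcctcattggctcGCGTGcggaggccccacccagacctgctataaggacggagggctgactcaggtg
G0s2: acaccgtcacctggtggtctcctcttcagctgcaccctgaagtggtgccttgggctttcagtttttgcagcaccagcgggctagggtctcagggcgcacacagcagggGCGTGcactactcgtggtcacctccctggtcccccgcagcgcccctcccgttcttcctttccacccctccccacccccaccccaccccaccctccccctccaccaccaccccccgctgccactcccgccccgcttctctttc

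The Hilpda window held ACGTG once and GCGTG at 2 positions. The first Hilpda window, which is not shown, held only GCGTG, and that past its start site. The Plin2 window held AGGTCA and GCGTG, both on the strand opposite to that of the gene. It also held the E-box CACGTG, which reads as ACGTG on both strands and runs past the start site, so that its first letters end the line. The Plin5 window held AGGTCA and GCGTG, and the G0s2 window GCGTG. RefSeq windows of 300 bases (250 before and 50 from the start site on) were found for all 10 genes, 15 windows in all, among 32851 windows of the genome. AGGTCA occurred in the windows of 2 of the genes, Plin2 and Plin5, and in 16.3% of all windows. ACGTG occurred in 4 (Plin2, Hilpda, Lipe and Mgll), against 19.6% of all windows. GCGTG occurred in 8, against 32.4% of all windows, Plin4 and Pnpla2 being the 2 without it. The windows of Plin4 and Pnpla2 held none of the motifs searched. The E-box CACGTG, which overlaps ACGTG, was in the windows of Plin2, Lipe and Mgll (7.15% of all windows). The glucocorticoid half-site AGAACA was in those of Cideb and Mgll (19% of all windows), and TATAAA in that of Cideb alone (13.6%). The full PPAR response element, a direct repeat of 2 such half-sites, was in none of the 15 windows and in 0.0396% of all windows. All motifs were searched on both strands, several genes have more than 1 window, and a match is a description of the letters only.

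Values are in scaled reads per base, the authors' name for the signal they deposited, and were read from 3′-end libraries (a modified CEL-Seq2 protocol applied to bulk RNA). Libraries held an estimated 557000 to 2744000 reads (median 1009000), and 3 reads corresponded to an estimated signal of 1.33 to 5.05, depending on the library. The signal of 1 read was taken as the commonest value above 0 in a library. Lower values occur, such as 0.879 for Cidec at 22 °C 0 h replicate 1, where 1 read was put at 1.23. The level of 3 reads is therefore approximate for a given gene. These limits cover counting error only. The markers of hepatocytes summed to 30901 to 68151 units of signal in every library, against 357 to 799 for stellate cells and 42.5 to 263 for Kupffer cells and macrophages, so the labelled tissue carried its defining genes. One library stood apart. The sample 30 °C 4 h replicate 4 had a median correlation of 0.796 with the others of its group, against at least 0.839 for the other 35 libraries, and results at 4 h that depend on it are given with and without it. Differences are on the scale log2(signal + 1) from limma and are given ± SE, with positive values for the later time or for 30 °C, and group means are given ± SD over the 4 or 5 samples of the group. In bulk tissue, fewer cells of a type and less RNA per cell cannot be told apart.

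Most of the coat, fusion and lipase genes were higher at 24 h than at 0 h at both temperatures, while the levels of Cideb, Lipe and Mgll were lowest at 4 or 12 h. Before LPS, Cideb had the highest signal of the 10, with means of 548 at 22 °C and 619 at 30 °C, followed by Plin2 (177 and 129.7) and Mgll (82.2 and 68.3). At 24 h Plin2 had the highest signal, with means of 847 and 678, and Cideb came next with 333 and 349. At 22 °C 4 h replicate 3, Plin4 and G0s2 both read 0.991, the estimated signal of 1 read in that library. Their other deposited values, named TPM, were 0.146 and 1.07 there. The exact scaling of the signal is not stated in the sources used here, and the order between genes carries that uncertainty.

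**Figure D1:**
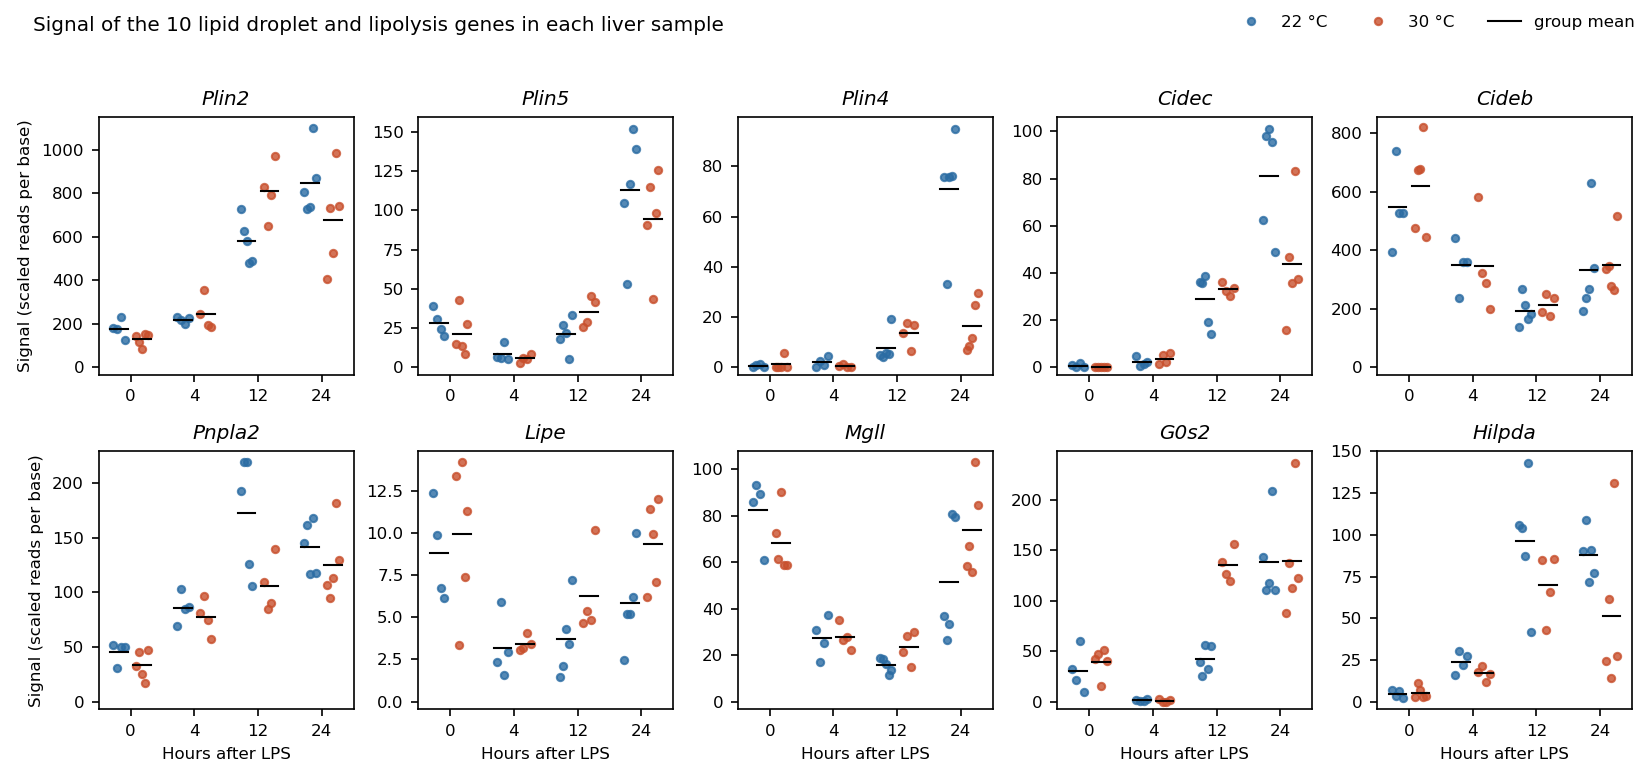
Signal in scaled reads per base (vertical axis, linear, its own scale for each gene) against hours after LPS. Each point is 1 liver sample, blue for 22 °C and orange for 30 °C, and bars are group means. Cidec and Plin4 lie near 0 at 0 h and 4 h, G0s2 drops to at most 2.66 at 4 h, and Plin4 at 24 h and G0s2 at 12 h show samples of the temperatures without overlap.

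Plin2, the perilipin that coats droplets in most cells, was higher at 12 and 24 h in every sample than in any sample at 0 h. At 22 °C its signal was 179.8, 174, 230.1 and 124 at 0 h, 233, 216, 199.8 and 226 at 4 h, and 730.0, 627, 579.6, 478 and 489.8 at 12 h. It then reached 804, 726, 735, 1099 and 868 at 24 h, a ratio of means to 0 h of 4.79 (log2 difference 2.27 ± 0.22). Its 30 °C samples read 142, 118, 84.6, 155 and 149 at 0 h. The 4 h samples (244, 357, 196 and 185) were all above those, a ratio of 1.89 (0.90 ± 0.22, and 1.02 without replicate 4), while at 22 °C the 4 h and 0 h ranges overlapped (0.34 ± 0.23). At 12 h the 30 °C samples stood at 827, 650.5, 794 and 973, and at 24 h at 406, 732, 525, 984 and 743. The highest group mean was at 24 h at 22 °C (847 ± 152) and at 12 h at 30 °C (811 ± 132), and these overlapped with each other and with 24 h at 30 °C (678 ± 223). The 4 groups at 12 and 24 h lay apart from the 4 groups at 0 and 4 h.

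Plin5, the perilipin that links droplets to mitochondria in oxidative tissue, was lower than at 0 h at 4 h and higher at 24 h. Its 22 °C samples read 39.4, 30.9, 24.2 and 19.8 at 0 h, then 6.62, 6.01, 15.9 and 5.61 at 4 h, all lower (-1.71 ± 0.45). By 12 h they read 18.1, 26.7, 21.8, 5.14 and 33.1, which overlapped with 0 h. At 24 h all 5 (105, 52.9, 117, 152 and 139) were above every earlier sample, a ratio to 0 h of 3.97 (1.91 ± 0.43). At 30 °C the means ran 21.5 ± 14.0, 5.78 ± 2.47, 35.4 ± 9.65 and 94.8 ± 31.9. The 4 h range at 30 °C (2.80 to 8.81) overlapped with the 0 h range (8.51 to 43.1), with a difference of -1.60 ± 0.43, or -1.80 without replicate 4. The 24 h samples at 30 °C (90.7, 115, 43.5, 98.7 and 126) were all above those at 0 h (2.22 ± 0.41).

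Plin4, a perilipin best known from adipose tissue and muscle, was near or under the level of 3 reads at 0 h and 4 h. At 22 °C it read 0, 1.10, 1.27 and 0 at 0 h and 0, 2.57, 0.991 and 4.49 at 4 h. It stood at 4.78, 3.96, 5.68, 5.14 and 19.1 at 12 h and at 75.8, 33.2, 75.6, 76.1 and 94.8 at 24 h. All samples at 24 h at 22 °C were thus above all 31 others, and that group was the only one apart from its neighbour in the order of Plin4 levels. At 30 °C, 4 of 5 samples were listed at 0 at 0 h and the fifth read 5.84. The 4 h samples read 0.444, 1.20, 0 and 0, the 12 h samples 13.8, 17.8, 6.61 and 16.7, and the 24 h samples 6.93, 8.42, 11.6, 24.9 and 29.7. At 30 °C the 12 h and 24 h ranges overlapped. With so few reads at 0 h, the fitted difference of 5.53 ± 0.55 at 24 h at 22 °C and of 3.35 ± 0.52 at 30 °C is set in part by the 1 added before taking logs and gives no bound.

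Cidec, the droplet fusion protein best known from fat cells, was listed at 0 in all 5 samples at 30 °C and in 2 of 4 at 22 °C at 0 h, where the other 2 read 0.879 and 1.81. At 4 h it read 4.72, 0.613, 1.42 and 2.38 at 22 °C and 1.58, 5.16, 2.34 and 5.91 at 30 °C, with 4 of these 8 samples at or under 3 reads. By 12 h the signal was 36.2, 35.6, 38.8, 19.1 and 14.3 at 22 °C and 36.1, 32.4, 30.4 and 33.7 at 30 °C. Every sample at 12 h or 24 h was above every sample at 0 h or 4 h. The 24 h samples were 62.6, 98.2, 101, 95.4 and 48.8 at 22 °C, all above the 12 h samples there, and 15.7, 46.7, 35.8, 83.3 and 37.6 at 30 °C, which overlapped with 12 h. No ratio to 0 h is given, because each 0 h value was at or under the estimated level of 3 reads.

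Cideb, the CIDE gene of hepatocytes, was lower than at 0 h. It was 395, 741, 528 and 527 at 0 h at 22 °C and 137, 269, 213, 166 and 182 at 12 h, all lower, with a ratio of 0.353 (-1.50 ± 0.29). At 30 °C the 0 h samples (475, 676, 678, 821 and 446) were all above the 12 h samples (189, 250.0, 175 and 237; ratio 0.344, -1.51 ± 0.29). At 24 h the samples read 193, 238, 269, 629.7 and 338 at 22 °C and 336, 348, 279, 263 and 519 at 30 °C, and both ranges overlapped with 0 h (-0.81 ± 0.29 and -0.83 ± 0.27). At 4 h at 30 °C the difference was -0.90 ± 0.29, and -0.67 without replicate 4. The ratio of the Cidec signal to the Cideb signal within a sample was at most 0.00343 at 0 h. At 24 h it lay between 0.144 and 0.413 at 22 °C and between 0.0467 and 0.317 at 30 °C. Nop9, a gene on the opposite strand that overlaps Cideb, had a mean signal of 475 and differed from 0 h in the same direction at 12 h (-1.0 and -0.97, limma adjusted p = 9.58e-05 and 1.46e-04). The sources used here do not give whether strand was used in counting, and reads of Cideb and Nop9 may be mixed. Nop9 was also lower at 4 h (-0.54 and -0.74 at 22 and 30 °C, limma adjusted p = 0.0481 and 0.00366). At 24 h it was lower at 22 °C (-0.80, limma adjusted p = 0.00152). At 24 h at 30 °C Nop9 stood near its 0 h level (0.14, limma adjusted p = 0.623). The difference of Cideb at 24 h at 30 °C lost its call after upper-quartile rescaling (-0.62). It also lost it without replicate 4 of the 0 h group (-0.72) or of the 24 h group (-0.74).

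Pnpla2, the first lipase of the chain, was higher at 4, 12 and 24 h than at 0 h in every sample at both temperatures. At 22 °C it read 52.2, 31.2, 49.6 and 49.6 at 0 h, 69.0, 103, 84.7 and 86.9 at 4 h, and 193, 219, 219, 126 and 106 at 12 h. The 24 h samples read 145, 162, 117, 168 and 118, a ratio to 0 h of 3.11 (1.63 ± 0.25). At 30 °C the means were 33.5 ± 12.8, 77.6 ± 16.3, 106 ± 24.8 and 125 ± 34.1, the last a ratio of 3.74 (1.92 ± 0.24). The 0 h groups lay apart from the other 6, and among those 6 each neighbour in the order overlapped with the next.

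The later lipases did not share that course. Mgll, the monoglyceride lipase, was lower at 4 and 12 h in every sample than in any sample at 0 h, and was back within its 0 h range in part of the 24 h samples. At 22 °C it read 86.0, 93.0, 89.1 and 60.7 at 0 h and 18.8, 18.1, 16.2, 11.5 and 13.4 at 12 h, a ratio of 0.190 (-2.33 ± 0.28). At 24 h the samples read 37.0, 26.6, 33.2, 80.6 and 79.5, so that 3 lay under the whole 0 h range and 2 within it. The ratio to 0 h at 30 °C was 0.408 at 4 h (-1.26 ± 0.28) and 0.344 at 12 h (-1.53 ± 0.28). The 24 h samples there (58.4, 66.7, 55.6, 103 and 84.5) covered the 0 h range of 58.7 to 90.0 (0.09 ± 0.26). Lipe, the hormone-sensitive lipase, was low throughout, with group means of 3.19 to 9.94, and 9 of the 36 samples were at or under 3 reads. Its means at 0 h were 8.79 ± 2.90 at 22 °C and 9.94 ± 4.53 at 30 °C, and at 4 h 3.19 ± 1.89 and 3.42 ± 0.442. At 22 °C these ranges lay apart (-1.28 ± 0.41) and at 30 °C they overlapped (-1.18 ± 0.39). Each neighbour in the order of the 8 Lipe means overlapped with the next.

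G0s2, the inhibitor of Pnpla2 named for its role at the start of the cell cycle, was at or near 0 at 4 h and above every 0 h sample at 24 h. Its signal at 0 h was 32.0, 20.9, 59.7 and 9.92 at 22 °C and 42.6, 46.9, 15.2, 51.4 and 40.2 at 30 °C. At 4 h it was 1.10, 0.858, 0.991 and 2.25 at 22 °C and 2.66, 0, 0 and 1.29 at 30 °C, with 7 of these 8 samples at or under 3 reads. All 8 samples at 4 h lay under all 28 others, and the fitted differences of -3.55 ± 0.42 and -4.46 ± 0.40 are no bound at so few reads. At 12 h the signal was 39.6, 25.7, 55.9, 32.1 and 55.5 at 22 °C, which overlapped with 0 h (0.64 ± 0.40). That difference was 1.04 and passed the threshold without replicate 3 of the 0 h group, the highest there (59.7). At 30 °C it was 138, 126, 119.9 and 156, all above every 0 h and 4 h sample (1.85 ± 0.40). The 24 h samples were 143, 111, 117, 209 and 111 at 22 °C and 88.0, 137, 113, 236 and 122 at 30 °C. The ratio to 0 h at 24 h was 4.51 at 22 °C (2.36 ± 0.40) and 3.55 at 30 °C (1.83 ± 0.37).

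Hilpda, the inhibitor of Pnpla2 that is induced by low oxygen and by fatty acids, was higher than at 0 h from 4 h on. At 22 °C it read 7.04, 3.60, 6.23 and 2.31 at 0 h and 16.2, 30.1, 21.9 and 27.5 at 4 h, a ratio of 4.99 (2.16 ± 0.45). It read 106, 104, 87.4, 143 and 41.6 at 12 h, a ratio of 20.1 (4.05 ± 0.43), and 90.4, 109, 71.6, 91.0 and 77.4 at 24 h. Its 30 °C samples stood at 2.82, 11.4, 6.87, 2.86 and 3.07 at 0 h, 17.8, 21.6, 11.6 and 16.8 at 4 h, and 85.0, 42.9, 65.5 and 85.8 at 12 h. All later samples were above all 0 h samples at the same temperature. The 24 h samples at 30 °C were 24.3, 61.4, 14.2, 131 and 27.1, the widest spread of any Hilpda group (51.7 ± 48.0), with 3 of 5 under every 12 h sample.

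**Figure D2:**
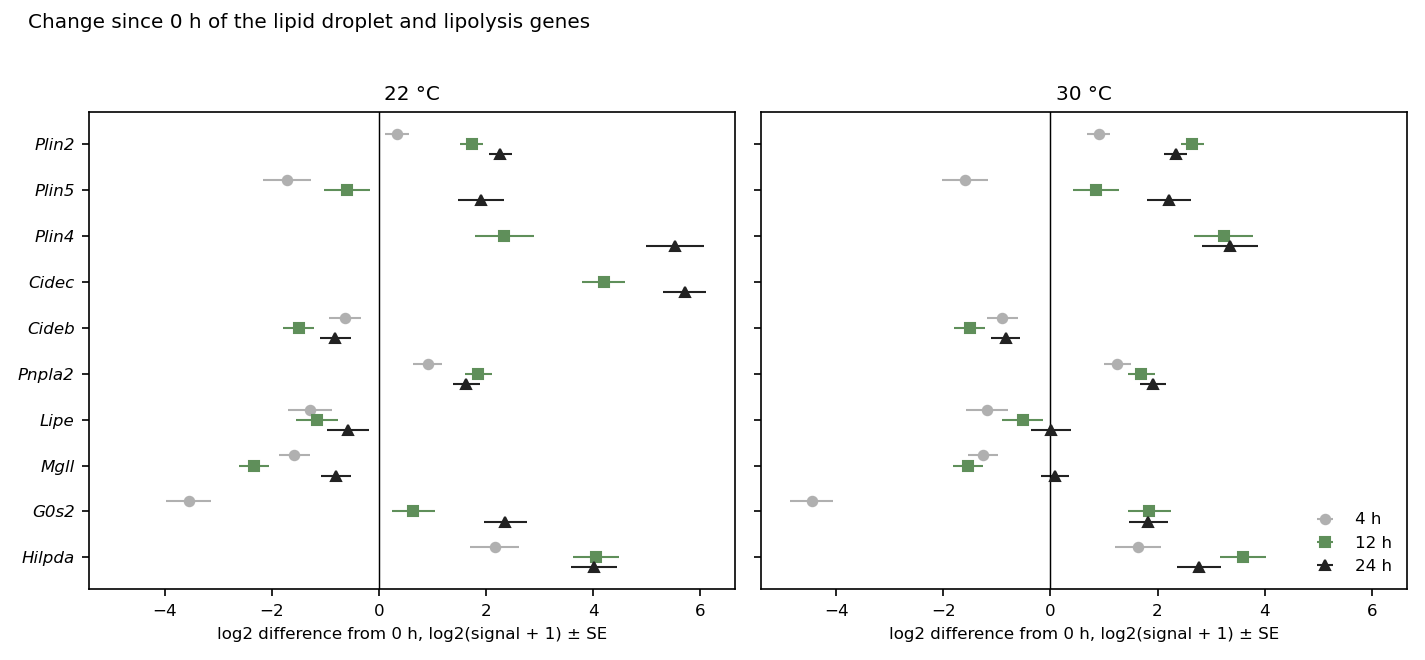
Change since 0 h at 22 °C (left) and 30 °C (right), as the log2 difference on the scale log2(signal + 1) ± SE from limma, for 4 h (grey circles), 12 h (green squares) and 24 h (black triangles). Differences are left out where a group was listed at 0 or both groups were at or under 3 reads. G0s2, Plin5, Cideb, Lipe and Mgll lie left of 0 at 4 h, and Plin2, Plin5, Plin4, Pnpla2, G0s2 and Hilpda lie right of 0 at 24 h at both temperatures.

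Counted over the 10 genes, 6 passed the threshold of the limma fit over all genes at 4 h at 22 °C (Benjamini-Hochberg adjusted p under 0.05), 2 higher and 4 lower, where 29.4% of all genes tested passed (15.8% higher, 13.6% lower). At 12 h it was 8, of which 5 were higher and 3 lower, against 41.4% of all genes (20.7% higher, 20.6% lower). At 24 h it was 9, of which 7 were higher and 2 lower, against 37.0% (19.0% higher, 18.0% lower). The 2 lower were Cideb and Mgll, which lost the call under 6 and 8 of the alternatives, among them no filter and a fit of only the groups compared, and leaving out 1 library gave a count of 7 to 9. The 30 °C samples gave 9 at 4 h, 4 higher and 5 lower (8 without the library that stood apart), against 32.5% of all genes (17.8% higher, 14.6% lower). They gave 8 at 12 h, 6 higher and 2 lower, against 38.3% (19.3% higher, 18.9% lower), and 8 at 24 h, 7 higher and 1 lower, against 29.7% (15.3% higher, 14.4% lower). Upper-quartile rescaling moved the share of higher among all calls at 24 h at 30 °C from 51.5% to 68.4%. At 30 °C it also moved that share from 54.9% to 63.4% at 4 h and from 50.5% to 59.1% at 12 h. The 7 that were higher at 24 h were the same genes at both temperatures: Plin2, Plin4, Plin5, Cidec, Pnpla2, G0s2 and Hilpda. In all 7 the 24 h and 0 h samples did not overlap at either temperature, a state that 28.4% of all genes tested met at 22 °C (13.9% as higher) and 20.2% at 30 °C (9.87% as higher). Samples also lay apart from 0 h for 6 of the 10 at 4 h and 7 at 12 h at 22 °C (29.9% and 32.7% of all genes), and for 6 and 8 at 30 °C (25.4% and 31.9%). The median difference of the 10 genes at 24 h was 2.09 at 22 °C and 2.07 at 30 °C, against 0.03 and -0.03 over all genes tested. The genes were chosen with these contrasts known, and nothing is read from those counts.

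The temperatures differed most clearly for Plin4 at 24 h and G0s2 at 12 h. Plin4 at 24 h was 71.1 ± 22.7 at 22 °C and 16.3 ± 10.3 at 30 °C (SD, n = 5 and 5), a ratio of 0.229 (-2.19 ± 0.52), and its lowest sample at 22 °C (33.2) was above its highest at 30 °C (29.7). Leaving out any 1 library moved this difference between -2.45 and -1.96. Hdgfl2, which overlaps Plin4 on the opposite strand, differed by 0.42 there (limma adjusted p = 0.429). G0s2 at 12 h was 41.8 ± 13.6 at 22 °C and 135 ± 15.8 at 30 °C (n = 5 and 4), a ratio of 3.22 (1.72 ± 0.40), and all 4 samples at 30 °C were above all 5 at 22 °C. By 24 h the G0s2 means were 138 ± 41.7 and 139 ± 56.9 (-0.03 ± 0.37).

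Hilpda at 24 h was 87.8 ± 14.3 at 22 °C and 51.7 ± 48.0 at 30 °C (-1.17 ± 0.41), with 4 of 5 samples at 30 °C under all 5 at 22 °C and replicate 4 at 30 °C (131) above them. Without that sample the difference was -1.62. It no longer passed the threshold without any 1 of replicates 1 to 4 at 22 °C or 1, 3 and 5 at 30 °C, with differences of -1.24 to -0.84, nor after upper-quartile rescaling (-1.0), with no filter or with only the groups compared. Cidec at 24 h was 81.3 ± 24.0 and 43.8 ± 24.8 (-1.0 ± 0.38), with overlapping ranges. It passed the threshold only without replicate 5 at 22 °C (-1.17) or replicate 4 at 30 °C (-1.28), or under 3 of the other settings. Mgll leaned the other way at 24 h (0.62 ± 0.26) and passed without replicate 4 or 5 at 22 °C (0.82 and 0.81) or after upper-quartile rescaling (0.79). Pnpla2 at 12 h was 172 ± 53.2 at 22 °C and 106 ± 24.8 at 30 °C (-0.66 ± 0.25), and passed without replicate 5 at 22 °C (-0.82). The other differences between temperatures at 12 and 24 h ran from -0.41 to 0.89, all with overlapping samples.

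Of the 10 genes, 0 passed between temperatures at 0 h (0.506% of all genes tested; 1 with an unadjusted p under 0.05 in limma) and 0 at 4 h (0.207%; 0 with an unadjusted p under 0.05). G0s2 alone passed at 12 h, as higher at 30 °C (4.26% of all genes tested, 0.977% as higher), and Plin4 and Hilpda at 24 h, as lower (18.6%, 8.71% as lower). Samples of the temperatures lay apart for 0 of the 10 at 0 h and at 4 h (3.15% and 4.32% of all genes), for G0s2 at 12 h (7.78%, 2.47% as higher) and for Plin4 at 24 h (11.3%, 5.72% as lower). At 4 h the library that stood apart did not change the count of 0. Over all genes tested, 18 passed at 4 h with that library and 9 without it.

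**Figure D3:**
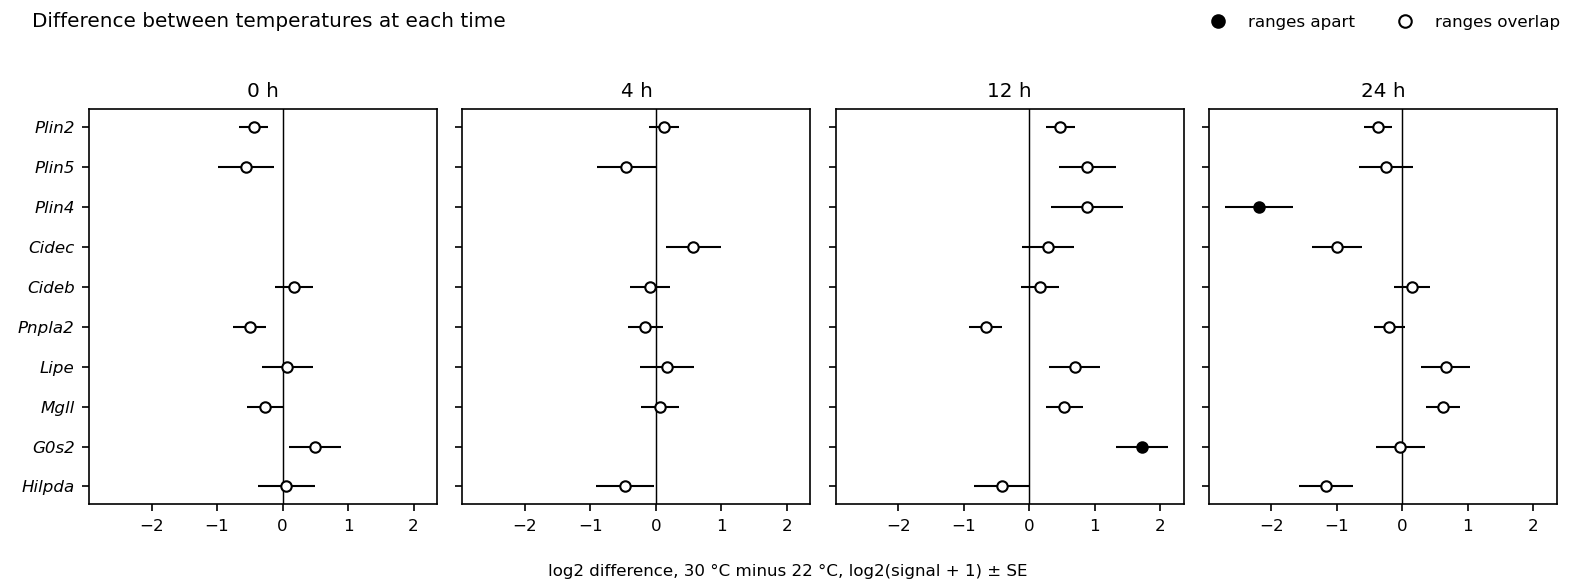
Difference between temperatures (30 °C minus 22 °C) at each time, as the log2 difference on the scale log2(signal + 1) ± SE from limma. Filled circles mark genes whose samples at the temperatures do not overlap, which are G0s2 at 12 h (1.72) and Plin4 at 24 h (-2.19), and genes listed at 0 in a group or at or under 3 reads in both are left out.

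The interaction subtracts the change since 0 h at 22 °C from the one at 30 °C and tests whether the response itself differed with temperature. None of the 10 genes passed it at 4, 12 or 24 h (0.0115%, 0.276% and 8.95% of all genes tested passed), and 0, 3 and 3 had an unadjusted p under 0.05 in limma. At 12 h the largest values were those of Plin5 (1.45 ± 0.61), G0s2 (1.22 ± 0.56) and Plin2 (0.93 ± 0.31). At 24 h they were those of Plin4 (-2.18 ± 0.76), Hilpda (-1.23 ± 0.59) and Mgll (0.89 ± 0.38). Plin4 passed at 24 h without replicate 4 (-2.38) or replicate 5 (-2.44) at 30 °C, and Hilpda without replicate 4 at 30 °C (-1.67). For Plin4 and Hilpda the values at 0 h rest on few reads, so the 1 added before taking logs bears on the interaction.

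Ratios of the genes within a sample take out what scales both, such as the depth of a library, and were chosen after the values were seen. The ratio of G0s2 to Pnpla2, an inhibitor to its target, had a median of 0.641 at 22 °C and 1.04 at 30 °C at 0 h, with overlapping samples. At 12 h it was 0.205, 0.117, 0.255, 0.255 and 0.524 at 22 °C and 1.26, 1.48, 1.33 and 1.12 at 30 °C, without overlap. At 24 h the medians were 0.986 and 1, again with overlap. The ratio of Hilpda to Pnpla2 was 0.623, 0.673, 0.612, 0.542 and 0.656 at 24 h at 22 °C, and 0.227, 0.648, 0.126, 0.72 and 0.209 at 30 °C, so that 3 of 5 samples there were below every sample at 22 °C. Plin4 and Plin5 lie next to each other on chromosome 17, on the same strand. At 24 h the ratio of Plin4 to Plin5 was 0.722, 0.628, 0.646, 0.501 and 0.682 at 22 °C and 0.0764, 0.0732, 0.267, 0.252 and 0.236 at 30 °C. These samples did not overlap, while Plin5 itself was 113 ± 38.5 and 94.8 ± 31.9 (-0.25 ± 0.41). Neighbouring genes thus had unlike differences between the temperatures.

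**Figure D4:**
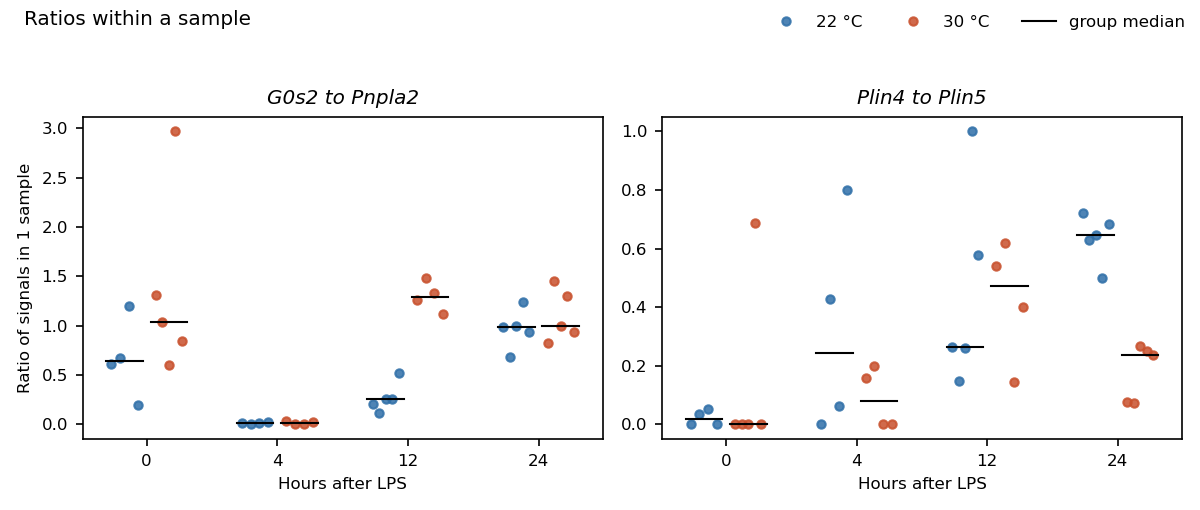
Ratio of the signals of 2 genes in 1 sample (vertical axis, linear) against hours after LPS, for G0s2 to Pnpla2 (left) and Plin4 to Plin5 (right). Points are samples, blue for 22 °C and orange for 30 °C, and bars are group medians, which are 0.255 and 1.29 for G0s2 to Pnpla2 at 12 h and 0.646 and 0.236 for Plin4 to Plin5 at 24 h; ratios of Plin4 at 0 and 4 h rest on few reads.

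Some samples were high or low for several of the genes at once. In the 24 h group at 30 °C, replicate 4 was the highest for 6 of the 10 (Cidec, Plin2, G0s2, Pnpla2, Hilpda and Mgll) and replicate 1 the lowest for 5. In the 24 h group at 22 °C, replicate 4 was the highest for 6 (Cideb, Plin2, Plin5, G0s2, Pnpla2 and Mgll) and replicate 2 the lowest for 5. In the 12 h group at 30 °C, replicate 4 was the highest for 6, and in the 0 h group at 22 °C replicate 4 was the lowest for 6. Without replicate 4 of the 24 h group at 30 °C, 3 of the 10 passed between temperatures at 24 h and 2 passed the interaction at 24 h.

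The courses of the genes were compared by the root mean square difference of their 8 group means of log2(signal + 1), each centred on its own mean. Among the 10, the closest pairs were Lipe and Mgll (0.45), Cideb and Mgll (0.47), Cideb and Lipe (0.49) and Plin2 and Pnpla2 (0.49). Cidec and Plin4 differed by 0.84 from each other. Among 4421 genes of mean signal at least 20, the closest to Plin2 were Rbm3 (0.20), Serpina3m (0.23) and Eif4ebp3 (0.27), and the closest to Pnpla2 were Atg16l2 (0.18), Wfdc21 (0.21) and Serinc3 (0.22). Hilpda was closest to Ctla2a (0.29), Mrap (0.34) and Serpina3c (0.38), and Mgll to Pctp (0.16), Ttc38 (0.20) and Tmem254a (0.25). Plin5 was closest to Dusp3 (0.34), Slc35g1 (0.42) and Fitm2 (0.45), the last a gene of droplet budding from the endoplasmic reticulum. The closest to Cidec were E030018B13Rik (0.57), Sult1e1 (0.72) and the leptin receptor gene Lepr (0.74). Plin4 was closest to Sult1e1 (0.79), Tmem254b (0.80) and Cd63 (0.82), and G0s2 to Etfbkmt (0.89), Inhbe (0.98) and G6pc (1.15), so that these 2 had the least similar partners. Cideb and Lipe, whose means spanned 1.67 and 1.36, fell short of the span of 2 that the rule asks for. The 8 means share their libraries, and likeness over 8 points is a description only.

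The other genes of droplets and triglyceride handling were read from 8 lists of 104 genes, 92 of which passed the filter, each tested with limma over all genes. Most of the changed ones were lower after LPS, except at 24 h at 30 °C. The 22 °C samples had 10 rises and 20 falls at 4 h, 18 and 40 at 12 h, and 23 and 36 at 24 h. Those at 30 °C had 11 rises and 26 falls at 4 h, 20 and 40 at 12 h, and 31 and 23 at 24 h.

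Of 10 tested genes of droplet proteins, 6 fell and 1 rose at 12 h at each temperature. Hsd17b11, a droplet-bound dehydrogenase, fell at both temperatures, with 12 h differences of -1.56 ± 0.28 and -2.28 ± 0.28 (22 and 30 °C; limma adjusted p = 3.42e-05 and 4.40e-08). Hsd17b13, another of that family, fell at 12 h at 30 °C (-0.94 ± 0.16, limma adjusted p = 9.79e-06). Bscl2 (seipin, which shapes the neck of a forming droplet) fell there too (-1.40 ± 0.25, limma adjusted p = 2.69e-05). Rab18, a droplet GTPase, rose at each time at both temperatures, with 12 h differences of 1.04 ± 0.15 and 0.76 ± 0.15 (limma adjusted p = 5.51e-07 and 7.54e-05). Plin3, the perilipin found in most tissues, fell at 4 h at 30 °C (-1.36 ± 0.26, limma adjusted p = 8.41e-05). At 22 °C its differences of -0.75 at 4 h, -0.72 at 12 h and -0.81 at 24 h passed, but each lost the call without replicate 3 or replicate 4 of the 0 h group (limma adjusted p up to 0.134 over all alternatives). Plin1 and Cidea, droplet genes of fat cells, were under the filter, with group means of 2.69 to 6.85 and at most 0.602. Abhd5, the activator of Pnpla2, did not pass in any of the contrasts. Its group means were 25.0 to 38.1 and its difference at 24 h was 0.17 ± 0.24 at 22 °C and 0.28 ± 0.22 at 30 °C.

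Among 16 other lipases and cofactors, 9 fell at 24 h at each temperature, with 1 and 2 rises. Ces1d, a carboxylesterase that hydrolyses stored triglyceride, went from 81.9 ± 7.38 to 14.3 ± 5.32 at 22 °C and from 112 ± 42.4 to 0.904 ± 0.541 at 30 °C, the latter at or under 3 reads. Its difference at 24 h was -2.50 ± 0.29 at 22 °C (limma adjusted p = 1.34e-08), and the interaction was -3.31 ± 0.40 (limma adjusted p = 2.34e-06). The 1 added before taking logs bears on that value. Ces1g had an interaction of the same sign (-1.70 ± 0.51, limma adjusted p = 0.0307), which lost the call under 9 of 45 alternatives (p up to 0.0916). Ces1d, Ces1f and Ces1g are closely related genes of one family, and reads that match several of them may be split between them. Ces1f fell at 24 h (-3.46 ± 0.33 and -4.25 ± 0.31), as did hepatic lipase, Lipc (-1.73 ± 0.19 and -2.27 ± 0.18; limma adjusted p at most 4.25e-09). Lysosomal acid lipase, Lipa, fell most at 12 h (-2.95 ± 0.25 and -2.66 ± 0.25, limma adjusted p = 1.66e-11 and 1.54e-10), and at 24 h was higher at 30 °C than at 22 °C by 1.00 ± 0.24 (limma adjusted p = 0.0026).

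Triglyceride synthesis genes fell at 4 h, 6 of 11 at 22 °C and 5 at 30 °C. Acsl1, which activates fatty acids, fell at 12 h (-2.64 ± 0.24 and -2.87 ± 0.24, limma adjusted p = 6.13e-11 and 7.81e-12). Lpin1, a phosphatidate phosphatase, was among those that fell at 4 h at 30 °C. At 12 h it rose by 2.54 ± 0.29 and 2.56 ± 0.29 (limma adjusted p = 1.20e-08 and 8.07e-09). Dgat2, which makes triglyceride from diglyceride, fell at 12 h (-1.13 ± 0.29 and -1.23 ± 0.29, limma adjusted p = 0.00201 and 8.98e-04). Of 9 triglyceride export genes, the 24 h groups had 4 rises and 3 falls (22 °C) and 6 rises and 1 fall (30 °C). Angptl4, an inhibitor of lipoprotein lipase, rose at 12 h by 2.71 ± 0.36 and 1.85 ± 0.36 (limma adjusted p = 1.68e-07 and 7.03e-05). Surf4, a cargo receptor of lipoprotein secretion, rose at 24 h (0.83 ± 0.14 and 1.03 ± 0.14, limma adjusted p = 1.81e-05 and 2.33e-07), and so did P4hb, the subunit that partners Mttp (0.52 ± 0.14 and 1.06 ± 0.13, limma adjusted p = 0.00354 and 8.79e-08). Of 10 genes of fatty acid uptake and binding, Cd36 and Fabp4 rose at 24 h at both temperatures, and Slc27a2, Slc27a5, Fabp1 and Vldlr fell.

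PPARa targets, a list that shares its regulator with several of the 10 genes, were split. At 12 h 8 of 15 fell at each temperature, and 4 rose at 22 °C and 5 at 30 °C. Those that fell were mainly enzymes of fatty acid oxidation, such as Acaa2, a mitochondrial thiolase (-0.78 ± 0.14 and -1.20 ± 0.14, limma adjusted p = 2.22e-05 and 9.08e-09). Those that rose at both temperatures were Cpt1a, Pdk4, Fgf21 and Angptl4. At 24 h 9 of the 15 were higher at 30 °C than at 22 °C and 1, Pdk4, was lower (-1.91 ± 0.52, limma adjusted p = 0.00918). Cyp4a14, a fatty acid hydroxylase, was 762 ± 459 at 22 °C against 2190 ± 599 at 30 °C (1.68 ± 0.30, limma adjusted p = 1.32e-04). Those higher at 30 °C also included Cyp4a10, Acadm, Ehhadh, Acot1, Vnn1, Acaa2 and Hadha, by 0.56 to 2.29. In the same samples Plin4, Hilpda, Cidec, Plin2, Plin5 and Pnpla2 had lower means at 30 °C, and of these Plin4 alone had samples that did not overlap between the temperatures. Cideb, Lipe and Mgll differed the other way (0.15, 0.66 and 0.62), and G0s2 by -0.03. A link between the PPARa targets and these genes was not tested. Ppara itself was low, with group means of 1.30 to 12.0, and fell at 30 °C at 4 h (-2.62 ± 0.40, limma adjusted p = 3.24e-06) and 24 h (-1.24 ± 0.38, limma adjusted p = 0.0125). Pparg was under the filter, with group means of at most 6.83.

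Of 10 tested hypoxia targets, 3 rose at 4 h and 5 at 12 h at each temperature, and Vegfa fell at 12 h at 30 °C. At 24 h at 22 °C, 5 rose and 2 fell (Vegfa and Egln3). At 24 h at 30 °C, 4 rose and 1 fell (Vegfa). Ldha, lactate dehydrogenase, rose at both temperatures, with 24 h differences of 2.18 ± 0.16 and 2.29 ± 0.15 (limma adjusted p = 8.40e-13 and 4.97e-14). Bnip3, a mitophagy receptor, rose at 12 h by 1.13 ± 0.17 and 1.42 ± 0.17 (limma adjusted p = 2.68e-06 and 3.98e-08) and at 24 h was 144 ± 21.6 at 22 °C against 60.2 ± 10.2 at 30 °C (-1.25 ± 0.16, limma adjusted p = 1.32e-06). Pfkfb3, which drives glycolysis, was lower at 30 °C at 12 h (-1.36 ± 0.31) and 24 h (-1.33 ± 0.29, limma adjusted p = 0.0064 and 0.00121). Adm, adrenomedullin, differed by -3.93 ± 0.53 between the temperatures at 12 h, with 30 °C the lower (limma adjusted p = 1.73e-05). Hif1a, a hypoxia-inducible factor, rose by 2.60 ± 0.24 and 2.64 ± 0.24 at 12 h (limma adjusted p = 1.96e-10 and 1.09e-10). At 24 h it was 89.0 ± 33.8 at 22 °C against 33.4 ± 10.8 at 30 °C (-1.35 ± 0.23, limma adjusted p = 6.91e-05), with an interaction of -1.26 ± 0.34 (limma adjusted p = 0.0151). Hilpda, a known target of that factor, had a lower mean at 30 °C at 24 h, a call lost under 10 of 45 alternatives. Of the 10 tested hypoxia targets, 2 were lower and 0 higher at 30 °C at 24 h. The interactions of Ldha and Pgk1 at 24 h were 0.11 and 1.11. A link between Hif1a and Hilpda was not tested.

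Of 14 tested regulators, 5 rose and 4 fell at 24 h at each temperature. Foxo1, a transcription factor that can drive Pnpla2, rose at 12 h by 1.54 ± 0.17 and 0.89 ± 0.17 (limma adjusted p = 3.62e-09 and 5.08e-05). At 4 h Foxo1 was 119 ± 14.3 at 22 °C against 59.1 ± 3.05 at 30 °C (-0.99 ± 0.18, limma adjusted p = 0.0045), a call that was lost when only the groups compared were fitted or after upper-quartile rescaling (p up to 0.104). The interaction of Foxo1 at 4 h (-1.35) lost its call under 12 of 45 alternatives (limma adjusted p up to 0.18), among them without the library that stood apart, where it was again -1.35. Srebf1, the regulator of fatty acid synthesis, fell at each time (-1.97 ± 0.31 and -2.62 ± 0.29 at 24 h, limma adjusted p = 3.72e-06 and 8.93e-09).

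Between temperatures 0 of the 92 passed at 0 h (11 with an unadjusted p under 0.05 in limma), 1 at 4 h, 5 at 12 h, all lower at 30 °C, and 33 at 24 h, 25 higher and 8 lower. The 5 at 12 h were Apoc3, Fabp1, Cyp4a10, Pfkfb3 and Adm. Apoc3 lost its call under 7 of 45 alternatives (limma adjusted p up to 0.0868), and Cyp4a10 lost it without replicate 3 at 30 °C (0.0584). Apart from those named, the genes that passed at 24 h included Hsd17b11, Hsd17b13, Aup1, Acsl3, Faah, Lpin2, Acsl1, Acsl5, Mttp, Apob, Sar1b, Slc27a2, Fabp1, Fabp2 and Nr1h3, all higher at 30 °C, and Ces1d, Ces1g and Foxo1, all lower. Of 45 alternatives, Apob lost its call under 27, Nr1h3 under 10, Sar1b under 8, Lpin2 and Foxo1 under 4, Mttp under 2 and Aup1 under 1, each of them without at least 1 single library (limma adjusted p up to 0.211). Hsd17b13, Faah and Cyp4a10 lost it when only the groups compared were fitted (limma adjusted p = 0.0677, 0.0536 and 0.0523).

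**Figure D5:**
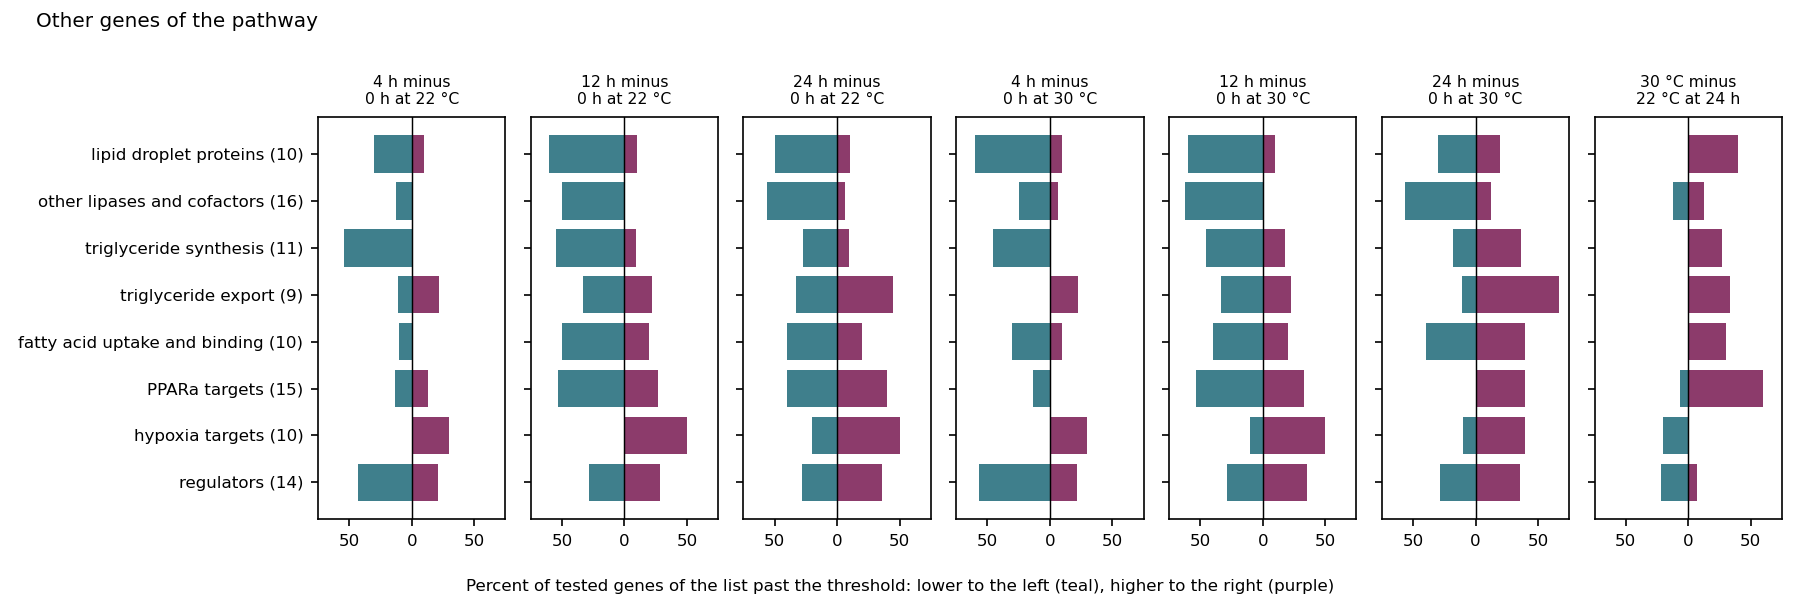
Percent of the tested genes of each list that passed the threshold of limma (adjusted p under 0.05), lower to the left in teal and higher to the right in purple, for each change since 0 h and for 30 °C minus 22 °C at 24 h. Numbers in parentheses are the genes tested in each list. Most lists have more falls than rises at 12 h. Hypoxia targets have 5 rises of 10 there at each temperature and 1 fall at 30 °C. PPARa targets have 9 of 15 higher at 30 °C at 24 h.

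Markers of other cells of the liver and of fat moved with the same groups. The 9 neutrophil and monocyte markers summed to 19.9 to 33.2 at 0 h at 22 °C and 30.7 to 55.7 at 30 °C, and to 126 to 282 and 176 to 367 at 24 h. Of the 3 that could be tested, S100a8 and S100a9 rose at each time at both temperatures. The 8 Kupffer cell and macrophage markers summed to 166 to 254 and 210.1 to 263 at 0 h, and to 42.5 to 115 and 85.4 to 104 at 24 h. Of the 7 tested, 5 fell at 24 h at 22 °C and 4 at 30 °C, and Marco rose. The 8 endothelial markers summed to 297 to 381 and 343 to 422 at 0 h, and to 106 to 204 and 117 to 231 at 24 h, where 4 of 7 tested fell and Lyve1 rose at each temperature. The 9 stellate cell markers summed to 517 to 617 and 593 to 799 at 0 h, and to 434 to 595 and 472 to 709 at 24 h, where 4 of 7 tested fell at each temperature and Hhip rose at 30 °C. The 9 hepatocyte markers summed to 35317 to 46585 and 30901 to 50739 at 0 h, and to 55340 to 66376 and 54436 to 62296 at 24 h. Of these 9, the 24 h groups had 5 falls and 1 rise (22 °C) and 4 falls and 3 rises (30 °C). The 5 red cell markers summed to 889 to 1676 and 702 to 2133 at 0 h, and to 482 to 1267 and 262 to 626 at 24 h, where 1 of 4 tested fell at 22 °C and 3 at 30 °C. Between the temperatures at 24 h, where Plin4 and Hilpda differed, the endothelial markers Kdr and Clec4g, the stellate cell markers Lrat and Col3a1 and the hepatocyte markers Apob and Cps1 were higher at 30 °C. The red cell markers Hba-a2 and Hbb-bt were lower there, and the tested markers of macrophages and neutrophils did not pass in limma (median differences of 0.33 and 0.35). Of the 8 fat cell markers only 1, Fabp4, could be tested, and it did not pass (0.59). The part of all these markers in the results for the 10 genes was not tested.

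Cidec, Plin4 and Lipe are also genes of fat cells. The 8 adipocyte markers summed to 91.0 to 110.3 at 0 h and 418 to 847 at 24 h at 22 °C, and to 45.0 to 81.6 and 445 to 1095 at 30 °C. Fabp4, which macrophages and endothelium also express, made up most of that sum, with group means of 52.6 to 822. Plin1, the perilipin of fat cells, had group means of 2.69 to 6.85, the lowest of them at 24 h at 22 °C. Some other defining genes of fat cells were at or near 0: Lep was at 0 in all 36 libraries, and the group means of Adipoq, Cfd and Cidea were at most 0.875, 0.778 and 0.602. The levels of Retn and Adrb3, also on that list, are not reported here. In the group with the highest Cidec and Plin4, 24 h at 22 °C, Adipoq had a mean of 0.168 and Lep and Cidea were at 0. Cfd and Retn were at 0 in every library at 22 °C 0 h, but not in every library at 22 °C 24 h. The part of fat cells in the levels of Cidec, Plin4 and Lipe was not tested.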

How the data were processed

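Liver RNA of 36 samples in 8 groups (22 °C or 30 °C, 0, 4, 12 or 24 h after LPS) was sequenced with a modified CEL-Seq2 protocol. Groups and replicate numbers come from the labels. Per the submitters' processing notes, Trimmomatic, kallisto and sleuth were used. The sources used here do not give their versions, the genome build, the use of strand or the handling of UMIs. The deposited table gives, per the file headers, a signal in scaled reads per base for 34829 genes, of which 34406 matched a symbol. How that unit scales the 3′-end reads is not stated in the sources used here. The signal of 1 read was the same for Plin4 and G0s2 at 22 °C 4 h replicate 3 (0.991), where their values named TPM differed. Whole reads were recovered for 16.8% to 19.6% of the values (within 0.01 of a read), so no count test was run, and reads per library (557000 to 2744000) are estimates.

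Genes of mean signal at least 5 (8702) were fitted on log2(signal + 1) with limma 3.58.1 in R 4.3.3, 1 mean per group and 28 residual degrees of freedom, for 13 contrasts, with Benjamini-Hochberg adjustment over all genes and a threshold of 0.05. The fit was tested on simulated data. The 10 genes and the other lists were chosen with earlier results of these data known. The ratios within a sample were chosen after the values were seen. Of the other lists, the genes to be named were those past the threshold between temperatures or in an interaction, up to 4 per list of smallest adjusted p since 0 h among those past it with a mean signal of at least 20 in the higher group, and 8 whatever their values (Abhd5, Plin1, Plin3, Cidea, Dgat2, Ppara, Pparg and Hif1a). Some genes that this rule names are not reported here. The 3 genes most alike were those of mean signal at least 20 with the smallest root mean square difference, for genes whose group means span at least 2 on the log2 scale. Promoters are RefSeq's (GRCm38.p6). Replicate numbers were not stated to pair samples. Alternatives were other deposited values named TPM, pseudocounts of 0.5 and 5, no filter or a minimum of 20, upper-quartile rescaling, only the groups of a contrast, array weights, a replicate block, and leaving out each library. No label ties the samples to different animals, and p-values then reflect only sample-to-sample spread, which may be technical.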

Additional observations from a re-analysis of the deposited data

Results flagged for a closer look

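Of 79 groups of 4 or 5 samples tested over the 10 genes, 5 held a sample that lay far from the others of its group by Dixon's test. Chance gives such a sample in about 1 in 20 groups. Plin4 had its highest sample at 30 °C 0 h at 5.84, where the other 4 were listed at 0, and at 22 °C 12 h at 19.1. Plin5 had its highest sample at 22 °C 4 h at 15.9. Pnpla2 had its lowest sample at 22 °C 0 h at 31.2. Lipe had its highest sample at 30 °C 12 h at 10.2.

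Changes since 0 h that differed between the temperatures, by the interaction in limma, were found for 23 genes and times among the other genes of the pathway, of which 21 are given. At 4 h the interaction of Foxo1 was -1.35, a call lost under 12 of 45 alternatives, among them without replicate 4 of the 30 °C 4 h group (the library that stood apart), with TPM values, after upper-quartile rescaling and with only the groups compared. At 24 h the response was more positive at 30 °C for the lipases Lipg (1.82) and Faah (1.13), for Acsl5 (1.05), Sar1b (0.85), Slc27a2 (1.25), Fabp1 (2.26), Fabp2 (1.86) and Acsl4 (1.22). The same held for the PPARa targets Cyp4a10 (1.77), Cyp4a14 (1.77), Acadm (1.09) and Hadha (1.23), and for Pgk1 (1.11). The response at 24 h was more negative at 30 °C for Ces1d (-3.31), Ces1g (-1.70), Pdk4 (-2.77), Pfkfb3 (-1.76), Bnip3 (-1.11), Foxo1 (-0.86) and Hif1a (-1.26). Among the 24 h calls, that of Sar1b was lost under 20 of 45 alternatives, Faah under 14, Ces1g under 9, Pgk1 under 7, Lipg under 4 of 43, Cyp4a10 under 2, and Pdk4, Pfkfb3 and Foxo1 under 1.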

How the results depend on the processing

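Of 48 differences of the 10 genes that passed the threshold, 40 kept direction and call under all alternatives that gave a value (up to 45, of which 36 leave out 1 library), 8 lost the call under at least 1, and 0 reversed. Of 69 that did not pass, 7 passed under at least 1 alternative. Of 266 differences of 53 other genes of the pathway, 218 kept their call, 48 lost it under at least 1 alternative, and 0 reversed. The causes of changed counts were not tested. Counts of the 10 genes past the threshold between temperatures moved from 1 to 2 at 12 h with array weights. At 24 h they moved from 2 to 1 with no filter or only the groups compared, where Hilpda lost its call. With a minimum of 20 the count was also 1, where Hilpda kept its call and Plin4 gave no value. Plin4 kept its call under all 43 alternatives that gave it a value. The interaction count of the 10 genes at 24 h moved from 0 to 1 with a pseudocount of 5 or array weights. Leaving out 1 library gave 0 to 0 between temperatures at 0 h and 4 h, 1 to 2 at 12 h, 1 to 4 at 24 h, and 0 to 2 for the interaction at 24 h. Counts of the other genes between temperatures at 4 h moved from 1 to 2 (pseudocount of 0.5, minimum of 20), 3 (array weights) or 0 (upper-quartile rescaling, only the groups compared), and were 1 to 2 without 1 library. At 12 h they moved from 5 to 8 (minimum of 20) or 17 (array weights), and were 4 to 8 without 1 library. Their interaction counts moved at 4 h from 1 to 0 (TPM values, upper-quartile rescaling, only the groups compared; 0 to 1 without 1 library). At 12 h they moved from 0 to 1 (TPM values, only the groups compared), 2 (minimum of 20) or 3 (pseudocount of 5, array weights; 0 to 3 without 1 library), and at 24 h from 22 to 14 (no filter).

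With the replicate block, the interaction count of the other genes at 12 h was 1 and that over all genes moved from 24 to 76. Same-numbered samples did not deviate together (correlation -0.1251 to 0.1096 over 118 pairs, 10 of 36 libraries closest to their own number), so the numbers were not taken as pairs. Titles and descriptions in the labels number the samples at 30 °C 12 h differently. The titles' numbers were used throughout, and the block was not run with the others.

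Over all genes, counts between temperatures moved at 0 h from 44 to 13 and at 4 h from 18 to 7 with only the groups compared, at 4 h to 3 with upper-quartile rescaling, and at 12 h from 371 to 798 with array weights. Leaving out 1 library gave 4 to 26 at 4 h and 187 to 590 at 12 h. A minimum of 20 moved counts since 0 h from 2556 to 1547 and 3599 to 2304 (22 °C, 4 and 12 h) and 2826 to 1772 (30 °C, 4 h). Upper-quartile rescaling moved the median difference between temperatures at 24 h from -0.03 to 0.13 and the share of higher calls from 53.3% to 73.4%, and under it the difference of G0s2 turned from -0.03 to 0.15. It moved that share from 22.9% to 36.1% between temperatures at 12 h, from 51.5% to 68.4% at 24 h since 0 h at 30 °C, and from 56.6% to 75.4% for the interaction at 24 h.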
